A study of Mus musculus with 6 samples.

Results

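The transcripts described here are 8 that the study listed as long noncoding RNAs (lncRNAs). They stood higher in the preconditioned area at risk (AAR) of the mouse heart than in the remote myocardium (RM), which is recorded as from the same animals. Each is read by 1 probe of a lncRNA array that holds 59709 probes in all. They were chosen by their difference between the AAR and the RM of preconditioned mice, as the study's list of the largest increases in the AAR gives it, so that difference is described below with no test. What the choice did not use is the level in the AAR of sham-operated mice. The question asked of each transcript was therefore whether the sham AAR resembled the preconditioned RM, resembled the preconditioned AAR, or lay between them. Both sham mice were close to the RM for 3 of the 8 transcripts and close to the preconditioned AAR for none of the 8. For 2 others both sham mice lay in between. For the remaining 3, AK035076, AK087032 and AK021184, the sham mice fell in different ranges. Among 2784 probes higher in preconditioned AAR than in RM, 20.4% were close to the RM on both sham arrays and 10.1% close to the preconditioned AAR. Among the 30 other probes with a difference at least as large as the smallest of the 8, 23 were close to the RM and 3 close to the preconditioned AAR. Both of these larger sets hold only probes well above background on every array. The split of the 8 moved with the class limits, the scale and the sham mouse left out.

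Ischemic preconditioning (IPC) is a series of short coronary occlusions, each followed by reperfusion, which makes the heart more tolerant of a later long occlusion. Long noncoding RNAs are transcripts without a protein product. Some are intergenic, with no gene at the same place, and others are antisense, transcribed from the opposite strand of a gene, where they can act on that gene's transcription or splicing or have no known effect. Most noncoding cDNAs collected in large mouse cDNA projects have no assigned function, and this holds for the AK and Gm transcripts below.

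All mice are recorded as females of 12 months and of strain C56BL7, as the records spell it, where the study's methods name C57BL6. Mice 004 and 008 underwent IPC, by the records 4 cycles of 4 min of left coronary occlusion and 4 min of reperfusion with a final 30 min of reperfusion. By the same records each gave 1 AAR and 1 RM biopsy. Mice 012 and 013 underwent the sham procedure and gave 1 AAR biopsy each. The study's methods name longer cycles and mice of both sexes, and place the AAR biopsy next to the ligation and the RM biopsy in the right ventricle, so the IPC AAR and the IPC RM also differ in their place in the heart. There are thus 6 arrays in 3 groups of 2, each array read in 1 color from 1 piece of whole tissue, in which fewer cells of a type and less RNA per cell cannot be told apart.

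Some properties of the arrays bear on every value below. All 4 IPC arrays shared slide 1 and both sham arrays slide 2, so an effect of the slide cannot be told apart from one of treatment. The image software had rescaled the sham arrays for spatial trends, with factors from 0.870 to 1.29 (percentiles 1 and 99 of the well-measured spots of mouse 012), and had not rescaled the IPC arrays. At the 8 probes the factors on the sham arrays were between 0.903 and 1.11. Between 36699 and 48359 of 59994 spots per array were well above background, with the fewest in sham mouse 012. Across 34553 probes well above background on all 6 arrays, the median difference between the sham mice was 0.31 on the log2 scale, against 0.11 between the IPC AAR arrays and 0.11 between the IPC RM arrays. The RM arrays also went against their records in one respect. Xist, the RNA that coats the inactive X chromosome of female cells, read 7.40 and 7.71 (log2 intensity, transcript ENSMUST00000127786) on the RM arrays and between 12.80 and 13.31 on the 4 AAR arrays, although the RM and AAR of a mouse are recorded as the same female. Comparisons with RM rest on these arrays, whereas the fit of IPC AAR with sham AAR leaves them out. They still entered the normalization of all arrays and the choice of the 8 transcripts.

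The array files name the 8 probes only by a design number. Their transcript names come from the group means that the study printed, each of which was met by 1 probe within 0.0700%, the next nearest probe being at least 4.85% away. A property that the means do not fix went with these names. Across 18 transcripts of the study's list, sorted within AK, Ensembl and UCSC accessions, the design number rose in 14 of 15 steps. The transcript Son of that list was left out of this check. The files hold no probe sequences, so none are shown.

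Every one of the 8 probes was measured well above background on each array, and no spot was saturated. Values are log2 intensities after quantile normalization, which forces the arrays onto a common distribution. The 8 probes lay between percentiles 74.9 and 92.4 of the array on the IPC AAR arrays, between 34 and 78.2 on the IPC RM arrays and between 32.1 and 87.0 on the sham arrays. By their group means in the IPC AAR the order ran from AK087032 (11.93) over AK021184 (11.03), uc009iqv.1 (10.83), AK030243 (9.97), the TCR-beta chain transcript (9.47), Gm15810 (9.04) and Gm12542 (8.46) to AK035076 (8.32). Different probes bind with different strength, so this order is one of signals and not of RNA amounts.

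Of the 4 intergenic transcripts, AK030243, a full-length mouse cDNA, had log2 intensities of 9.98 and 9.96 in preconditioned AAR, 5.98 and 6.01 in RM and 6.47 and 7.13 in sham AAR (mice 012 and 013). Both sham arrays stood above both RM arrays and far nearer to them than to the IPC AAR. AK035076, another full-length cDNA and the dimmest of the 8, read 8.20 and 8.43 in preconditioned AAR, 4.49 and 4.29 in RM and 5.93 and 4.14 in sham AAR. Its sham arrays fell on either side of the RM arrays, mouse 012 above both and mouse 013 below both. AK087032, the brightest, read 11.94 and 11.92 in preconditioned AAR, 8.65 and 8.58 in RM and 10.08 and 9.19 in sham AAR. Here both sham arrays exceeded both RM arrays, mouse 012 by more than mouse 013.

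The last intergenic transcript, uc009bpe.1, comes from the locus of the beta chain of the T cell receptor, the antigen receptor of T lymphocytes. It read 9.40 and 9.54 in preconditioned AAR, 6.08 and 5.81 in RM and 8.04 and 7.45 in sham AAR. Its groups did not overlap, and the sham AAR stood about midway. Whether T cells in the biopsies took part was not tested, since 0 of 38 marker genes listed for T cells, blood, heart and skeletal muscle, endothelium, fibroblasts and early response have a probe identified in the files.

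The 4 antisense transcripts overlap genes of different kinds. Gm15810 (ENSMUST00000160241) lies opposite Phactr1, a regulator of protein phosphatase 1 and actin. It read 9.02 and 9.06 in preconditioned AAR, 5.30 and 5.56 in RM and 5.56 and 5.28 in sham AAR. The sham and RM arrays of Gm15810 covered the same range, and the IPC AAR arrays stood apart from both. Gm12542 (ENSMUST00000133015) lies opposite Snx30, a sorting nexin of endosomal membranes, and read 8.28 and 8.63 in preconditioned AAR, 5.15 and 5.0 in RM and 5.90 and 5.57 in sham AAR. Both sham arrays of Gm12542 were slightly above both RM arrays.

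The transcript uc009iqv.1 carries the gene symbol Art1, an arginine ADP-ribosyltransferase on the surface of skeletal and heart muscle cells, and lies antisense to Chrna10, a nicotinic acetylcholine receptor subunit. In the RefSeq gene table Chrna10 lies within the span of Art1, on the opposite strand. Whether the probe also reads the mRNA of Art1 was not tested. The probe read 10.81 and 10.86 in preconditioned AAR, 7.55 and 7.55 in RM and 8.80 and 8.72 in sham AAR. It was the probe of the 8 with the smallest difference between the sham mice, 0.08, and its 3 groups did not overlap. AK021184, opposite Adam10, a membrane protease that cleaves Notch and other surface proteins, was at the other extreme. It read 11.01 and 11.05 in preconditioned AAR, 7.83 and 7.66 in RM and 10.33 and 7.91 in sham AAR. Before normalization its processed intensities were 1847 and 1933 in preconditioned AAR, 329 and 304 in RM and 1023 and 218 in sham AAR. Sham mouse 012 thus stood near the IPC AAR and sham mouse 013 near the IPC RM, 2.42 apart on the log2 scale.

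**Figure D1:**
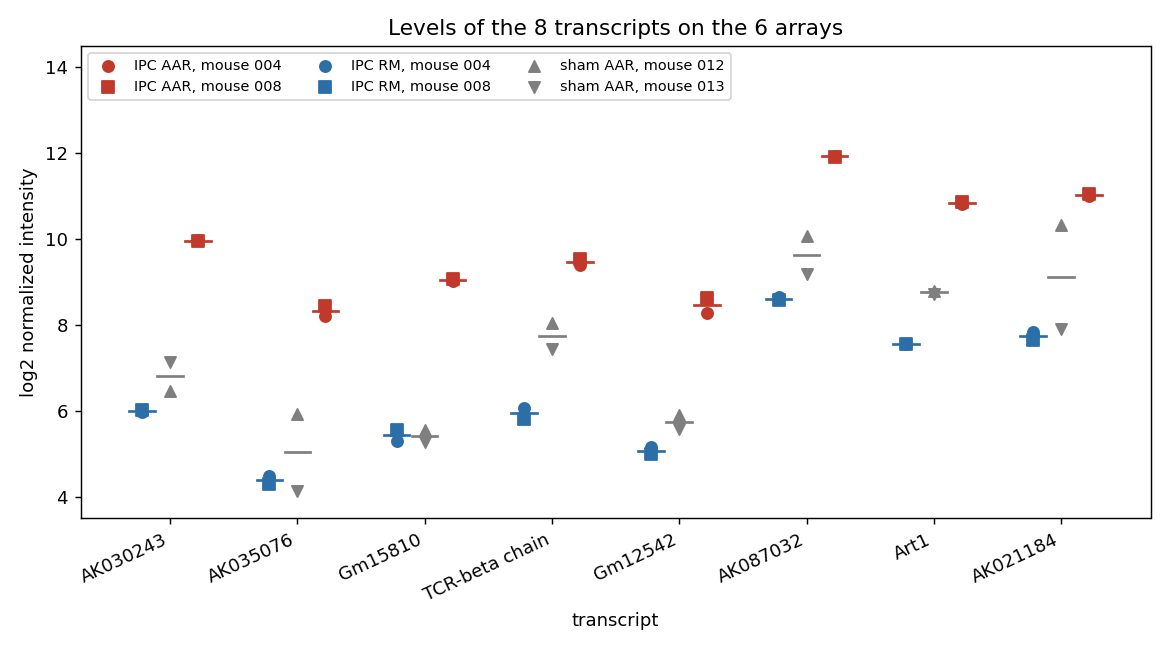
Log2 normalized intensity (vertical axis) of the 8 transcripts (horizontal axis) on each of the 6 arrays, with a bar at each group mean of 2 arrays, 1 symbol per mouse, and uc009iqv.1 labelled Art1. The IPC arrays of a region lie close together for each transcript, while the sham arrays of AK021184, at 10.33 and 7.91, lie far apart.

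As a description of how the 8 were chosen, their levels in preconditioned AAR exceeded those in RM by 3.28 (AK021184) to 3.97 (AK030243) on the log2 scale, or 9.72-fold to 15.7-fold. Of 46232 probes tested in that comparison, 7.29% were called higher in the IPC AAR and 49.6% had no overlap with higher values there. By this difference the 8 ranked between 35 and 83 among the tested probes. Among the 34553 probes well above background on all arrays, 37 had a larger difference than AK021184, of which 7 were the other transcripts described here. Just inside the limit were uc009iqv.1 (3.29) and AK021184 (3.28), and the next probe below had 3.25. Of those 37, 36 carry only a design number in the files, among them the 7 other transcripts described here and both Xist probes. The remaining one, named MM9LINCRNAEXON10114-, had a difference of 3.41.

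The comparison of IPC AAR with sham AAR asks whether preconditioned and sham-operated tissue of the same region differed. All 8 transcripts were higher in the IPC AAR, by 1.72 (TCR-beta chain) to 3.62 (Gm15810) on the log2 scale, with a median of 2.51 against 0.23 over all 40161 probes tested. With calls made by limma at an adjusted p under 0.05 and more than 2-fold, 6 of the 8 were higher, beside 2.78% of all probes tested, while 5.78% of all probes and 0 of the 8 were lower. With no filter on dim probes limma called 0 of the 8 and 0 of all probes (7 and 15743 at an unadjusted p below 0.05), and the methods' t-test called 0 of the 8 and 1 of all probes after adjustment. Both IPC AAR arrays stood above both sham arrays for all 8, as they did for 46.7% of all probes. Because the IPC AAR arrays were the ones on which these transcripts had been chosen for being high, neither the direction nor the p-values of the 8 are independent evidence of a difference.

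Gm15810 showed the largest of these differences, 3.62, or 12.3-fold (standard error 0.17, adjusted p = 0.0146 from limma). AK030243 was 8.98-fold higher (log2 difference 3.17, standard error 0.28, adjusted p = 0.0206 from limma). Gm12542 was 6.61-fold higher, with a log2 difference of 2.72 and an adjusted p of 0.0195 from limma. For uc009iqv.1 the log2 difference was 2.07 (standard error 0.14), for AK087032 2.30 (standard error 0.35) and for the TCR-beta chain transcript 1.72 (standard error 0.26), with adjusted p-values from limma of 0.0173, 0.0406 and 0.0397. The 6 called were thus the antisense transcripts opposite Phactr1, Snx30 and Chrna10 and the intergenic AK030243, AK087032 and TCR-beta chain transcripts. The remaining 2 were not called in this fit, and in both the sham mice differed widely. AK035076 had a log2 difference of 3.28 with a 95% confidence interval from 1.44 to 5.12 (adjusted p = 0.0621 from limma), and AK021184 one of 1.91 with an interval from -0.53 to 4.35 (adjusted p = 0.198 from limma). Under some alternatives AK035076 was called too. Its adjusted p from limma was 0.0322 with scaling to the 75th percentile and 0.0174 with normexp background correction. The value was 0.0202 in the limma fit of all 6 arrays and 0.0237 with an intensity trend in limma. AK021184 was not called under any of these.

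Without the IPC AAR array of mouse 004, or without that of mouse 008, 0 of the 8 and 0 of all probes were called by limma, with 7 of the 8 at an unadjusted p below 0.05 in each case and 6066 and 6745 of all probes. Without sham mouse 012, 8 were called, beside 3754 of all probes, and without sham mouse 013, 5 were, beside 626 of all probes. From the signal before spatial rescaling, a choice made after the data were seen, 5 were called, and AK087032 was no longer among them (log2 difference 2.18, adjusted p = 0.0509 from limma, range over the alternatives 0.00974 to 0.202).

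**Figure D2:**
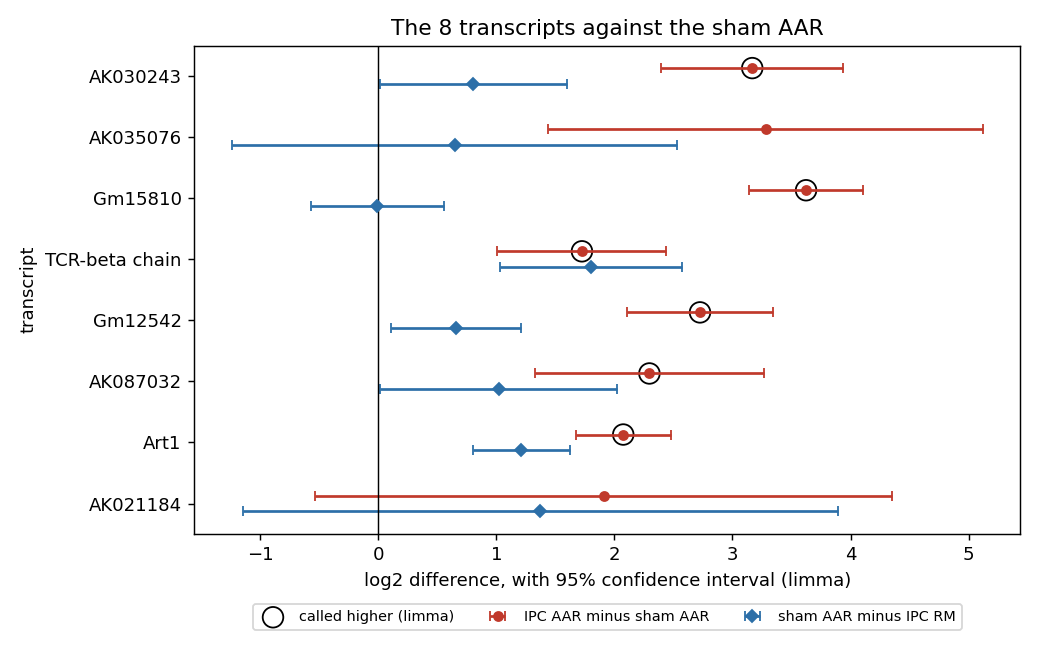
Log2 difference (horizontal axis, with the 95% confidence interval from limma) of each transcript between IPC AAR and sham AAR (circles) and between sham AAR and IPC RM (diamonds), with an open ring around a difference that was called. The rings mark 6 of the 8 circles and 0 of the 8 diamonds, and the intervals of AK035076 and AK021184 are the widest in both comparisons.

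The comparison of sham AAR with IPC RM shares the sham arrays with the one above and the RM arrays with the choice of the transcripts, which were low there. Here too, neither the direction nor the p-values of the 8 are independent evidence of a difference. Of the 8, 7 had a higher mean in the sham AAR, with a median of 0.91 against -0.03 over all 46061 probes tested, and 6 had both sham arrays above both RM arrays, beside 26.3% of all probes. In this comparison limma called 0 of the 8, beside 0% of all probes tested, with 5 of the 8 and 7554 of all probes at an unadjusted p below 0.05. The largest difference was that of the TCR-beta chain transcript, 1.80 (standard error 0.27, 95% confidence interval 1.03 to 2.57, adjusted p = 0.177 from limma). For uc009iqv.1 the difference was 1.21 with an interval from 0.80 to 1.62 (adjusted p = 0.163 from limma), and for AK087032 it was 1.02 with an interval from 0.02 to 2.02.

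At the other end, Gm15810 differed by -0.01 with an interval from -0.57 to 0.55. Gm12542 had 0.66 with an interval from 0.11 to 1.20, and AK030243 had 0.80 with an interval from 0.01 to 1.60. The intervals of AK035076 (-1.24 to 2.53) and AK021184 (-1.15 to 3.89) were too wide to place the sham AAR against the RM. Without sham mouse 013, 5 of the 8 were called, beside 2068 of all probes, and without sham mouse 012, 3 were called, beside 1995 of all probes. In the single fit of all 6 arrays, which holds both biopsies of mice 004 and 008 with no block, 1 was called beside 100 of all probes, uc009iqv.1 (adjusted p = 0.0474 from limma, lowest over the alternatives 0.0156, highest 1).

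To answer the question for each transcript on a common scale, each sham array was given a position, 0 at the mean of the IPC RM and 1 at the mean of the IPC AAR on the log2 scale. A transcript was counted as like the IPC RM when both sham arrays lay below 0.3, as like the IPC AAR when both lay above 0.7, and as between otherwise. This is a description with no test, and both ends of the scale come from the arrays that chose the transcripts. Gm15810 had positions of 0.04 and -0.04 (mice 012 and 013), Gm12542 of 0.24 and 0.15, and AK030243 of 0.12 and 0.29, and these 3 were like the IPC RM. AK030243 was close to the limit and was counted as between when the limits were 0.25 and 0.75.

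The other 5 were counted as between, in different ways. The arrays of uc009iqv.1 gave 0.38 and 0.36, so that the 2 sham mice were alike and both lay in between. The TCR-beta chain transcript had the highest mean position, 0.51, with 0.59 and 0.43. AK087032 had 0.44 and 0.17, AK035076 had 0.39 and -0.06, and AK021184 had 0.79 and 0.05. For AK087032, AK035076 and AK021184 the sham mice thus fell in different ranges and shared no intermediate level. Of the 4 antisense transcripts 2 were like the IPC RM, and of the 4 intergenic ones 1 was, numbers too small to compare. None of the 8 was like the IPC AAR. Without sham mouse 013, AK021184 was counted as like the IPC AAR, and without sham mouse 012, 6 of the 8 were like the IPC RM and 2 between, as they also were with a single limit at 0.5 and on linear intensities.

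**Figure D3:**
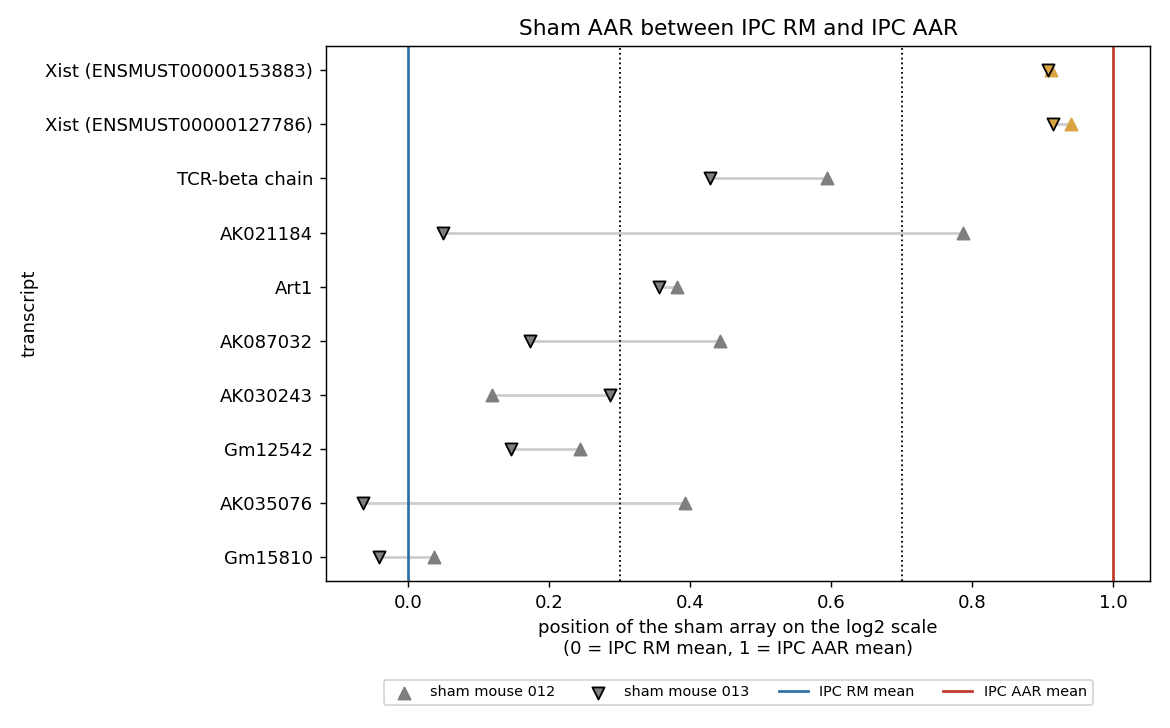
Position of the sham AAR arrays of mice 012 and 013 (horizontal axis, log2 scale, 0 at the IPC RM mean and 1 at the IPC AAR mean) for the 8 transcripts and, above them, the 2 Xist transcripts, with dotted lines at 0.3 and 0.7. Mean positions of the 8 run from 0.00 for Gm15810 to 0.51 for the TCR-beta chain transcript, while both Xist transcripts lie above 0.9 on both sham arrays.

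The Xist transcripts, which the study listed beside these 8, had positions of 0.94 and 0.91 (ENSMUST00000127786) and 0.91 and 0.91 (ENSMUST00000153883). They were like the IPC AAR on both sham arrays, unlike the 8, each of which had at least 1 sham array below 0.5. Whether the RM and AAR biopsies of a number came from the same mouse was not tested.

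The position of the sham AAR was also set against that of larger sets of probes. Of 2784 probes that limma called higher in preconditioned AAR than in RM and that were measured above background on each array, 20.4% were like the IPC RM, 69.5% between and 10.1% like the IPC AAR, and their median mean position was 0.379, against 0.255 for the 8. Another set was the 30 other probes, also measured above background on each array, with a difference at least as large as that of AK021184. Of these, 23 were like the IPC RM, 4 between and 3 like the IPC AAR, with a median of 0.06. No test was made of these differences. The 8 were not removed from the 2784, and the 30 include both Xist probes, which were like the IPC AAR. Sham mouse 012 had the higher position in 7 of the 8, the exception being AK030243, as it had in 82.9% of the 2784 probes.

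**Figure D4:**
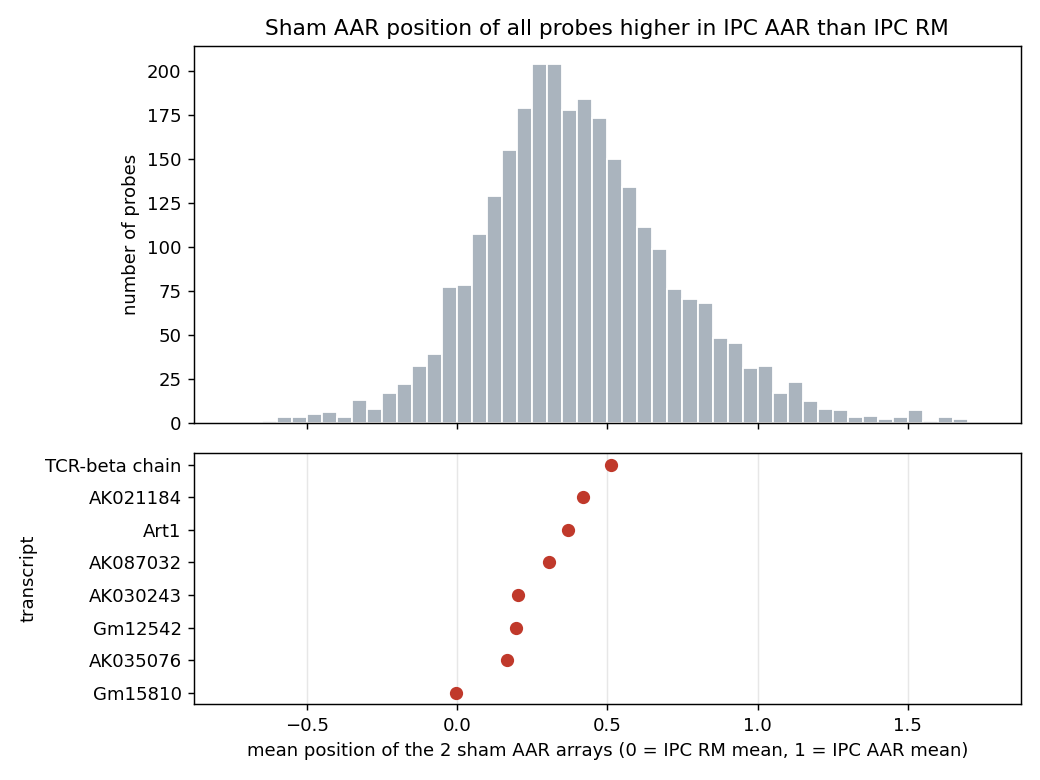
Upper panel, number of probes (vertical axis) by the mean position of the 2 sham AAR arrays (horizontal axis, 0 at the IPC RM mean and 1 at the IPC AAR mean) for the 2784 probes higher in preconditioned AAR than in RM, of which 8 fall outside the plotted range. Lower panel, the mean positions of the 8 transcripts, which lie from 0.00 to 0.51, around and below the 2784 probes' median of 0.38.

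Replicates of the 8 were close on the IPC arrays and less so on the sham arrays. The difference between the mice had a median of 0.04 in the IPC AAR (highest 0.35, Gm12542), 0.17 in the IPC RM (highest 0.27, TCR-beta chain) and 0.63 in the sham AAR (highest 2.42, AK021184). Across the 6 arrays, the Pearson correlation between pairs of the 8 ranged from 0.80 (AK030243 with AK021184) to 0.98 (AK087032 with uc009iqv.1) over 28 pairs, a description that follows in part from the choice of all 8 on the same difference. Between IPC AAR and IPC RM, 8 housekeeping genes that the files name differed by -0.58 to 0.54, and between IPC AAR and sham AAR by -0.68 to 0.28. Unlike the 8 transcripts, these genes were not chosen by a difference between groups, so their smaller differences are only a description.

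Among 1498 probes that the files name and whose values spanned more than 1 on the log2 scale, the one whose profile over the 6 arrays was most like the mean of the 8 was uc008sno.1, with a Pearson r of 0.999. It read 10.77 and 10.76 in preconditioned AAR, 7.60 and 7.57 in RM and 8.90 and 8.08 in sham AAR. The next 4 were MM9LINCRNAEXON12047+, mouselincRNA0655+, AK090059 and MM9LINCRNAEXON10088+, with r between 0.997 and 0.998. They are named for their likeness over the same 6 arrays. The genes that the antisense transcripts overlap, Phactr1, Snx30, Chrna10 and Adam10, and Art1 itself, have no probe that the files name, so sense and antisense levels are not set side by side here.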

How the data were processed

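RNA from heart biopsies had been hybridised to Arraystar lncRNA arrays in 1 color (Cy3), and the authors read the spots with Agilent Feature Extraction (11.0.1.1 in the headers). Deposited intensity values are processed signals, which the authors' software had background-subtracted within each array, and, on the sham arrays, scaled for spatial trends. They were not normalized between arrays. The deposited flags that were used mark outlier spots and spots well above background. Background-subtracted signals gave the rescaling factors and the signal before spatial rescaling. Median spot and background signals served the normexp alternative. A deposited table has 6 columns of values whose names match no sample record, and these were not used.

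Control spots and outlier spots were left out (17 to 29 outlier spots per array), log2 values of spots of a probe were averaged, and the 6 arrays were quantile normalized with limma 3.58.1 under R 4.3.3. Tests covered probes with no missing value that both arrays of either group measured well above background. Each comparison was fitted with lmFit and eBayes on its 4 arrays, with Benjamini-Hochberg adjustment over all probes tested. Precision is limited by having 2 arrays per group, for which 0.333 is the smallest p of an exact permutation test (two-sided) on a single probe.

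The members and lists were chosen with earlier results of these data known, and of 9 housekeeping genes looked up (3 more than planned), 8 have a probe that the files name. Named transcripts are the 8, the Xist probes and the 5 named probes most like them. The RefSeq table of GRCm38.p6 gave symbols for 116 of 123 RefSeq accessions. The array was designed on mm9, so no coordinates are given. The number of an AAR and RM biopsy marks the same mouse by the records. Over 46232 probes, the change from mouse 008 to 004 in AAR correlated at -0.09 with that in RM. As a check of the procedures, a large difference was added to some probes of simulated data and looked for. No limit was set there on false calls, so the check does not measure how reliable the calls are. Alternatives covered the scaling, background correction, filter, fit, test, class limits and each array left out.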

Additional observations from a re-analysis of the deposited data

How the results depend on the processing

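For IPC AAR against sham AAR, the 6 transcripts called became 0 with no filter on dim probes (limma, 7 at an unadjusted p below 0.05) and 0 by the methods' t-test (6 unadjusted), and ranged from 0 to 8 without 1 array. Over all probes, the 1116 called higher became 2189 with scaling to the 75th percentile (44.2% of all calls against 32.5%), 651 with normexp, 2027 in the fit of 6 arrays, 0 with no filter and 1 by the t-test, and 0 to 3754 without 1 array. For sham AAR against IPC RM, the 0 called became 1 when all 6 arrays were fitted together and 0 to 5 when 1 array was left out, and the 0 over all probes became 100 in the fit of 6 arrays, 7 with an intensity trend and 0 to 2068 without 1 array. The difference of Gm15810, near 0, changed sign with scaling to the 75th percentile (0.0026), without sham mouse 013 (0.13) and without the RM array of mouse 008 (0.12), and that of AK035076 without sham mouse 012 (-0.25). Without 1 array they ranged from -0.15 to 0.13 and from -0.25 to 1.54. The differences of the other 6 transcripts, and all 8 between IPC AAR and sham AAR, kept their sign under the 14 alternatives of each comparison. Between IPC AAR and sham AAR, 7 of the 8 were called, AK035076 being added, under several of them. These were scaling to the 75th percentile, normexp, the fit of 6 arrays and the intensity trend. Scaling to the 75th percentile moved the median log2 difference of all probes between IPC AAR and sham AAR from 0.23 to 0.33 and that between IPC AAR and IPC RM from 0.20 to 0.33.

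Of the classes by position, 3 like the IPC RM and 5 between became 6 and 2 with a single limit at 0.5, and 6 and 2 on linear intensities. Without 1 array the number like the IPC RM ranged from 3 to 6, between from 2 to 5, and like the IPC AAR from 0 to 1. The 3370 probes called higher in preconditioned AAR than in RM became 6096 with the 75th percentile, 1446 with normexp and 845 to 5311 without 1 array. With the mouse as a replicate block they were 3181. The block was run for that comparison alone, since the other comparisons set separate mice against each other. The lone array of a group was assumed to vary like the other group. The cause of these changes was not tested. Signal was well above background for the 8 on each array.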
